A study of Danio rerio with 12 samples.

Results

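The genes described here are 10 zebrafish genes for selenoproteins: sepp1a and sepp1b, sepw1 and sepw2a, gpx1a, gpx1b, gpx4a and gpx4b, and dio1 and dio2. They were chosen by symbol, as the rows of the deposited tables with these names, and each of the 10 symbols matched 1 row of the 32674 genes. RNA was sequenced from whole embryos of the EK strain, an F1 generation at 5 days post-fertilisation. The parents had received feed with 0 ppm methylmercury (MeHg, the control group), 1 ppm, 3 ppm or 10 ppm for their whole lives, and no exposure of the embryos themselves is given. Each diet had 3 libraries, numbered as replicates 1 to 3, and each library came from a pool of 5 embryos. No label tells whether pools that share a diet had different parents or spawnings. All p-values therefore measure only the spread between pools, which may be technical.

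Selenoproteins carry selenocysteine, an amino acid inserted at a UGA codon with the help of an element in the 3′ part of the messenger RNA. Glutathione peroxidases use its selenol group to reduce peroxides, deiodinases use it to remove iodine from thyroid hormones, and selenoprotein P carries selenium in the blood. MeHg binds selenol and thiol groups tightly, and selenoenzymes are among its known targets at the protein level. Messenger RNA, which was measured here, does not show enzyme activity or bound mercury.

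In the deposited count table, fragment counts had been divided by 1 factor per library, and these values are called scaled counts below. The steps between low values gave back 5630437 to 11848664 fragments per library. A second table held FPKM, fragment counts scaled by transcript length and library size, which sets genes of different length on 1 scale. Of 55 marker genes of 6 tissues (brain, exocrine pancreas, intestine, liver, muscle, and yolk with macrophages), 54 reached 1 FPKM in every library. The exception was the muscle myosin gene myhz2, listed at 0 in the 3 ppm libraries. At 10 ppm against control the median log2 difference of these lists was -0.02 for brain, 0.44 for exocrine pancreas, 0.20 for intestine, 0.07 for liver, -0.01 for muscle and 0.11 for yolk with macrophages. At 1 ppm the medians in the same order were -0.06, 0.29, 0.17, -0.19, -0.15 and 0.02. At 3 ppm they were -0.31, 0.32, 0.24, 0.23, -0.02 and 0.12. There 9 of 10 brain markers were lower than in controls. The part of these tissue shifts in the gene lists described below was not tested. Since whole embryos were pooled, fewer cells of a type and less RNA per cell cannot be told apart. The clock gene per1b stood at 549 to 864 scaled counts in 4 libraries (control 2 and 3, 1 ppm 2 and 3) and at 49.4 to 78.6 in the other 8 libraries. Comparisons of control or 1 ppm with 3 or 10 ppm therefore mix diet and clock state. Where log2 per1b is a covariate below, its slope rests mainly on the control and 1 ppm groups, each with 1 library of low per1b. Such values are not a full correction for clock state.

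The 10 genes differed widely in level, and their order was much alike in all libraries. Per length, sepp1a was the most abundant, at 713 ± 77.0 FPKM (mean ± SD over 12 libraries), followed by gpx4a at 452 ± 109 and sepw1 at 441 ± 50.9 FPKM. Next stood gpx4b at 189.7 ± 28.6 FPKM. A middle group held gpx1a at 55.2 ± 18.3, sepw2a at 50.6 ± 6.07 and sepp1b at 50.4 ± 13.4 FPKM, with gpx1b at 24.1 ± 2.84 FPKM below them. The deiodinase genes stood last, with dio1 at 15.1 ± 4.47 FPKM and dio2 at 0.601 ± 0.169 FPKM. Among neighbours in this order, the ranges over 12 libraries were separate only for sepw1 above gpx4b, gpx4b above gpx1a, and dio1 above dio2. Within each library sepp1a was 1st, gpx4b 4th, dio1 9th and dio2 10th, while gpx4a and sepw1 each stood 2nd in 6 libraries and 3rd in 6 libraries. The 3 most abundant genes made up 77.6% to 83.4% of the summed FPKM of the 10 genes.

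None of the 9 genes that could be tested passed for any difference between parental diets. Testing used limma on log2(scaled count + 1) over all 12 libraries, with Benjamini-Hochberg adjustment over the 18390 genes whose mean reached 10 scaled counts, two-sided, at a threshold of 0.05. The gene dio2 had a mean of 6.77 scaled counts and stayed under that minimum. At 1 ppm against control 0 of 9 genes passed, as did 0% of all tested genes. At 3 ppm against control 0 of 9 passed, beside 0.0163% of all tested genes, and at 10 ppm against control 0 of 9 passed, beside 0%. Between diets the count was again 0 of 9, for 3 ppm against 1 ppm (0.0163% of all tested genes), 10 ppm against 1 ppm (0%) and 10 ppm against 3 ppm (0.0163%). It was also 0 of 9 in the F-test over the 4 diets (0.0163%) and in the test for a trend over diet ranks (0.0218%).

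At an unadjusted limma p under 0.05, the count at 1 ppm against control was 0 of 9, beside 1.96% of all tested genes, and at 3 ppm it was 0 of 9, beside 10.4%. At 10 ppm against control it was 2 of 9 (dio1 and sepw1), beside 5.71% of all tested genes. The same limit gave 0 of 9 for 3 ppm against 1 ppm (15.8% of all tested genes), 1 of 9 for 10 ppm against 1 ppm (gpx1a; 8.08%) and 2 of 9 for 10 ppm against 3 ppm (gpx1a and gpx4a; 3.77%). It gave 1 of 9 in the F-test (gpx1a; 8.59%) and 2 of 9 in the trend test (dio1 and sepw1; 10.3%). limma-voom, on the scaled counts or on recovered fragments, called 0 of 9 in each test as well. Few genes of any kind passed in these libraries, so a count of 0 is near the background.

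A further count is that of genes whose libraries of 2 diets did not overlap. At 1 ppm against control there was 0 of 9, beside 3.26% of all tested genes higher and 2.77% lower without overlap. At 3 ppm against control sepp1a was higher (8.27% of all tested genes) and sepw1 lower (9.45%). At 10 ppm against control sepw1 was lower (4.81%) and 0 of 9 were higher (5.55%). Comparing 3 ppm with 1 ppm, sepp1a was higher (10.6%), and sepw1 and sepw2a were lower (11.2%). Comparing 10 ppm with 1 ppm, gpx1a and gpx1b were lower (6.41%) and 0 of 9 were higher (6.37%). Comparing 10 ppm with 3 ppm, 0 of 9 were higher (6.54%) and 0 of 9 lower (4.42%).

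**Figure D1:**
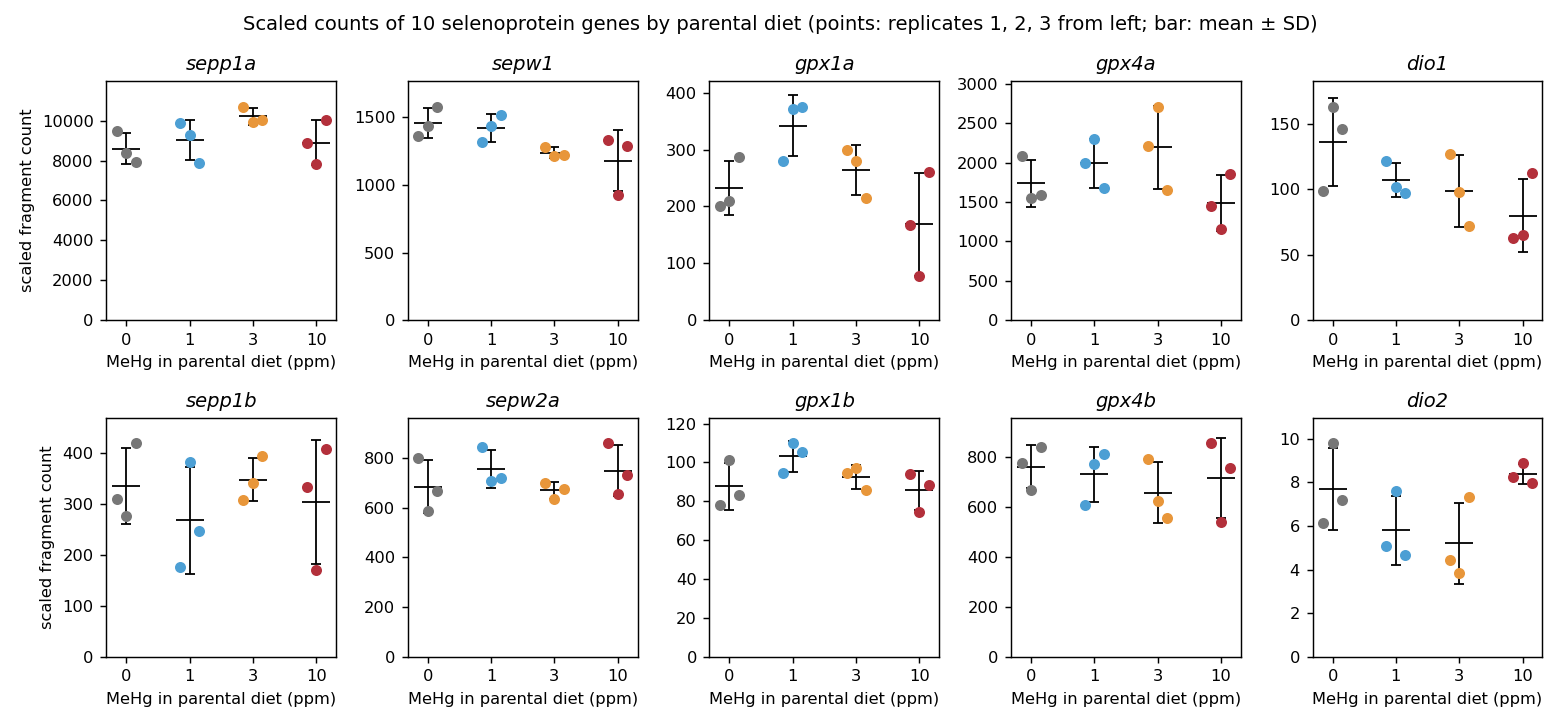
Scaled fragment counts of the 10 genes (y axes, each from 0) against MeHg in the parental diet (x axes, ppm). Points are libraries, with replicates 1, 2 and 3 from left to right, and bars give mean ± SD (n = 3). The 10 ppm replicate 2, the middle point at 10 ppm, is the lowest of 12 libraries for 7 genes. The ratio of the highest to the lowest library is largest for gpx1a, at 4.80 (78.3 to 376).

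Selenoprotein P is a secreted protein that in mammals is made mostly by the liver and delivers selenium to other organs. Zebrafish have a gene pair for it, and sepp1a encodes the form with the tail rich in selenocysteine. In control libraries sepp1a (ENSDARG00000093549) had 9460.5, 8366 and 7947 scaled counts, at 1 ppm 9889, 9283 and 7899, at 3 ppm 10700.2, 9949 and 10008, and at 10 ppm 8879, 7804 and 10018. All 3 libraries at 3 ppm lay above all control libraries, while the other diets overlapped the controls. The difference at 3 ppm was 0.25 on the log2 scale (95% interval -0.03 to 0.54, limma adjusted p = 0.513), with 10219 ± 418 against 8591 ± 781 in controls (SD, n = 3 each). With log2 per1b as a covariate it was 0.092. The other log2 differences of sepp1a from control were 0.07 at 1 ppm and 0.05 at 10 ppm. The summed level of liver markers was 8045 to 12140 FPKM at 3 ppm, against 8163 to 8648 FPKM in controls. Over the list of 10 liver markers, 9 were higher at 3 ppm than in controls, with a median log2 difference of 0.23. At 3 ppm against 1 ppm all 10 were higher, with a median of 0.40. The part of liver markers in the sepp1a values was not tested.

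The second gene of the pair, sepp1b (ENSDARG00000079727), encodes the short form without that tail. Its control libraries held 309, 276 and 419 scaled counts, the 1 ppm libraries 176, 383 and 247, the 3 ppm libraries 309, 342 and 394, and the 10 ppm libraries 333, 171 and 409. The 2 lowest libraries were the 10 ppm replicate 2 and the 1 ppm replicate 1, the highest was control replicate 3, and all groups overlapped. The log2 difference from control was -0.37 at 1 ppm (95% interval -1.08 to 0.34), 0.07 at 3 ppm and -0.21 at 10 ppm. Within a library, sepp1a stood 9.17 to 27.5 times above sepp1b in FPKM.

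Selenoprotein W is a small cytosolic protein with a thioredoxin fold, abundant in mammalian muscle. For sepw1 (ENSDARG00000035136), control libraries gave 1364, 1439 and 1580.1 scaled counts, those at 1 ppm 1316, 1435 and 1519, those at 3 ppm 1285, 1214 and 1219.7, and those at 10 ppm 1332, 924 and 1286. All libraries at 3 ppm and all at 10 ppm lay below the lowest control library, the 10 ppm replicate 1 by a narrow margin. The 10 ppm libraries averaged 1181 ± 224 against 1461 ± 110 in controls (SD, n = 3 each). The log2 difference from control was -0.04 at 1 ppm, -0.23 at 3 ppm (95% interval -0.54 to 0.07, adjusted p = 0.561) and -0.32 at 10 ppm (95% interval -0.62 to -0.02, limma adjusted p = 0.851). Over diet ranks its slope was -0.12 ± 0.04 log2 units per step (SE, limma adjusted p = 0.415). Without the 10 ppm replicate 2, the difference at 10 ppm was -0.16. With log2 per1b as a covariate the differences were -0.13 at 3 ppm and -0.20 at 10 ppm.

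Its relative sepw2a (ENSDARG00000038228) showed no such order. In control libraries it had 798, 587 and 667 scaled counts, at 1 ppm 844, 706 and 717, at 3 ppm 700.2, 633 and 672, and at 10 ppm 858, 656 and 732. Each diet overlapped the controls, and the log2 differences from control were 0.15, -0.02 and 0.13 at 1, 3 and 10 ppm. The 3 ppm libraries all lay below the lowest 1 ppm library.

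Glutathione peroxidase 1 is the soluble enzyme that reduces hydrogen peroxide with glutathione. Its gene gpx1a (ENSDARG00000018146) varied most among the 9 tested genes: the SD of its log2 values over 12 libraries was 0.61, against a median of 0.28 over all tested genes. This rank rests on the 10 ppm replicate 2, at -1.58 log2 units from the gene mean. In the other libraries its deviations ran from -0.49 to 0.67, against -0.68 to 0.68 for dio1. Control libraries had 200.3, 209.8 and 288 scaled counts, 1 ppm libraries 279.8, 372 and 376, 3 ppm libraries 299, 279.6 and 215, and 10 ppm libraries 167, 78.3 and 260.05. The 1 ppm libraries were the highest group by mean and the 10 ppm libraries the lowest, and every 10 ppm library lay below every 1 ppm library. At 10 ppm the mean was 168 ± 90.9, against 342 ± 54.2 at 1 ppm (SD, n = 3 each), a log2 difference of -1.17 (95% interval -1.91 to -0.42, limma adjusted p = 0.602). Without the 10 ppm replicate 2 this difference was -0.70. At 1 ppm, replicates 2 and 3 (372 and 376) were of high per1b and replicate 1 (279.8) of low per1b. All 10 ppm libraries were of low per1b. Diet and clock state are thus mixed in this comparison, and their parts in it were not tested. Against control the log2 difference was 0.56 at 1 ppm (95% interval -0.18 to 1.31), 0.19 at 3 ppm (-0.55 to 0.93) and -0.61 at 10 ppm (-1.35 to 0.14, adjusted p = 0.851). The last value was -0.14 without the 10 ppm replicate 2 and -0.33 with log2 per1b as a covariate, which gave 0.44 at 3 ppm. In the F-test over 4 diets gpx1a had a limma adjusted p of 0.567.

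The second gene of that pair, gpx1b (ENSDARG00000006207), was low and even. Its control libraries held 78.2, 101.4 and 83.4 scaled counts, those at 1 ppm 94.4, 109.8 and 105, those at 3 ppm 94.3, 97.3 and 85.7, and those at 10 ppm 94.2, 74.3 and 88.2. Like gpx1a, it had every 10 ppm library below every 1 ppm library, though the closest libraries, at 94.2 and 94.4, nearly met. Log2 differences from control were 0.24 at 1 ppm, 0.08 at 3 ppm and -0.03 at 10 ppm.

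Glutathione peroxidase 4 reduces lipid hydroperoxides within membranes and guards cells against ferroptosis. Its gene gpx4a (ENSDARG00000068478) had 2081, 1548 and 1588 scaled counts in control libraries, 1991, 2305 and 1675 at 1 ppm, 2218, 2712 and 1652 at 3 ppm, and 1446, 1161 and 1861 at 10 ppm. The groups overlapped throughout, with the highest library at 3 ppm and the 2 lowest at 10 ppm. At 10 ppm the mean was 1489 ± 352, against 2194 ± 530 at 3 ppm (SD, n = 3 each), a log2 difference of -0.56 (95% interval -1.01 to -0.11, limma adjusted p = 1.00). Without the 10 ppm replicate 2 this difference was -0.39. The 3 comparisons with control gave 0.20 at 1 ppm, 0.32 at 3 ppm and -0.24 at 10 ppm (95% interval -0.69 to 0.21) on the log2 scale. With log2 per1b as a covariate they were 0.17 at 1 ppm, 0.17 at 3 ppm and -0.40 at 10 ppm. The comparisons of gpx1a and gpx4a between diets share the 10 ppm libraries with those against control.

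For gpx4b (ENSDARG00000076836), control libraries gave 779, 669 and 839.8 scaled counts, 1 ppm libraries 607, 773 and 815, 3 ppm libraries 793, 625 and 556, and 10 ppm libraries 856, 543 and 757. Every diet overlapped the controls. The log2 difference from control was -0.06 at 1 ppm, -0.22 at 3 ppm and -0.10 at 10 ppm, and the 10 ppm group held both the highest and the lowest of the 12 libraries.

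**Figure D2:**
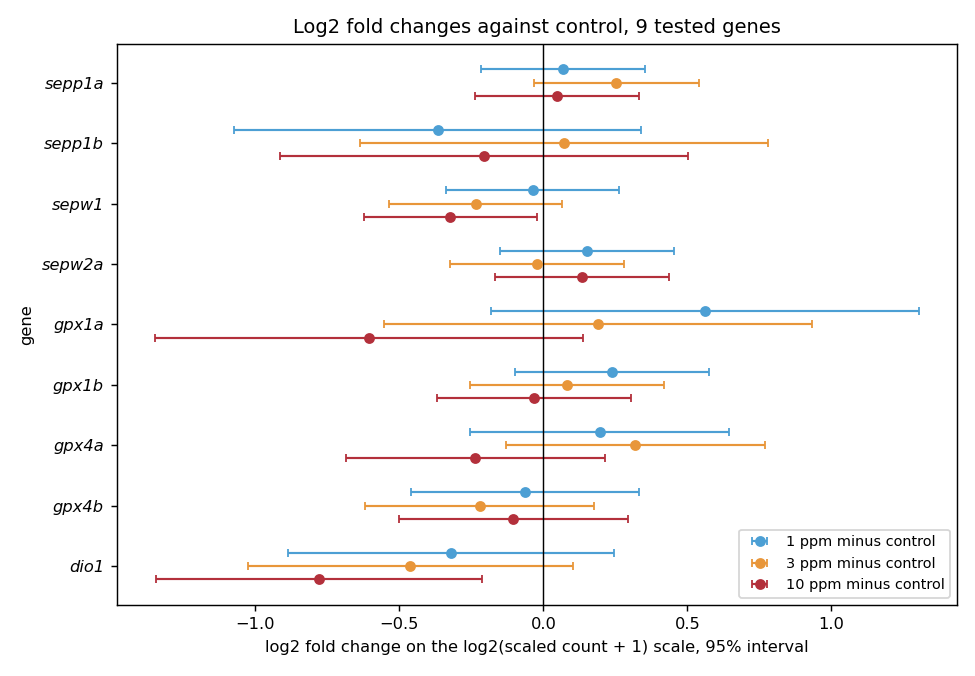
Log2 fold changes on the log2(scaled count + 1) scale (x axis) of the 9 tested genes (y axis), for each MeHg diet minus control; points are limma estimates and bars 95% intervals. All intervals cross 0 except those of dio1 and sepw1 at 10 ppm, and neither of these passed after adjustment over all tested genes.

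Type 1 deiodinase both activates and clears thyroid hormones, and in mammals it is found mainly in liver, kidney and thyroid. In control libraries its gene dio1 (ENSDARG00000042112) had 98.4, 163 and 146 scaled counts, at 1 ppm 122, 101.4 and 97.1, at 3 ppm 127, 97.9 and 71.6, and at 10 ppm 62.8, 64.6 and 112. Group means ran 136 ± 33.5, 107 ± 13.1, 98.8 ± 27.6 and 79.8 ± 28.0 at 0, 1, 3 and 10 ppm (SD, n = 3 each). Of the 9 tested genes, dio1 and sepw1 had a lower mean at each step of the diet. The share of all tested genes with such an order was not computed. For sepw1 the last step rests on the 10 ppm replicate 2. Its log2 difference of 10 ppm from 3 ppm was -0.09 with all libraries and 0.08 without that one. For dio1 these values were -0.32 and -0.19. Groups overlapped at every dose: the 10 ppm replicate 3, at 112, lay above control replicate 1. The log2 difference from control was -0.32 at 1 ppm (95% interval -0.89 to 0.24), -0.46 at 3 ppm (-1.03 to 0.10, adjusted p = 0.540) and -0.78 at 10 ppm (-1.35 to -0.21, limma adjusted p = 0.774). The slope over diet ranks was -0.25 ± 0.08 log2 units per step (SE, limma adjusted p = 0.344).

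Leaving out 1 library at a time gave log2 differences of -1.05 to -0.63 at 10 ppm. The smallest adjusted limma p, 0.156, came without control replicate 1. That setting kept only control 2 and 3, both of high per1b. All 10 ppm libraries were of low per1b, so diet and clock state cannot be told apart there. The 2 highest dio1 libraries, control 2 and 3, are also those with the highest per1b. At 1 ppm the order was the reverse. There dio1 was lower in replicates 2 and 3, of high per1b, than in replicate 1, of low per1b. Its deviations from the gene mean were 0.004 and -0.058 against 0.264 log2 units. Of 12 clock genes, 8 were lower at 10 ppm than in controls, with a median log2 difference of -1.35, and 0 passed there, while bhlhe40 passed in the trend over diet ranks (limma adjusted p = 0.0426). At an unadjusted limma p under 0.05 the clock genes gave 9 of 12 at 10 ppm (5.71% of all tested genes). They gave 9 of 12 at 3 ppm (10.4%), 0 of 12 at 1 ppm (1.96%) and 11 of 12 in the trend test (10.3%). With log2 per1b as a covariate the log2 difference of dio1 was -0.35 at 3 ppm and -0.65 at 10 ppm. Without the 4 libraries of high per1b it was -0.033 at 3 ppm and -0.35 at 10 ppm, but these values rest on control replicate 1 as the only control library, the lowest of the 3 controls for dio1. The part of the clock state in the dio1 values was not tested further. The number of liver markers higher at 10 ppm than in controls was 7 of 10, with a median log2 difference of 0.07.

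Type 2 deiodinase converts thyroxine to the active hormone within target tissues. Its gene dio2 (ENSDARG00000094857) was near the floor, with 4 to 14 recovered fragments per library, so each value rests on few fragments. It had 6.15, 9.79 and 7.17 scaled counts in control libraries, 5.10, 7.60 and 4.68 at 1 ppm, 4.42, 3.86 and 7.33 at 3 ppm, and 8.27, 8.88 and 7.97 at 10 ppm. All groups overlapped the controls. Without the minimum on low values, limma gave log2 differences from control of -0.36, -0.51 and 0.13 at 1, 3 and 10 ppm, with a 95% interval of -0.60 to 0.86 at 10 ppm. The interval of dio1 at 10 ppm, -1.35 to -0.21, overlapped that of dio2, and fold changes on this scale are understated for low genes such as dio2. The 2 genes were not compared by a test.

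Ratios within a library set each gene against its partner without the scaling between libraries. The ratio of gpx1a to gpx1b in FPKM averaged 2.27 ± 0.594, 2.78 ± 0.262, 2.39 ± 0.273 and 1.62 ± 0.810 at 0, 1, 3 and 10 ppm (SD, n = 3 per diet). Only in the 10 ppm replicate 2 was gpx1a below gpx1b, at a ratio of 0.881. For sepw1 over sepw2a the ratio was 10.1 ± 2.21, 8.99 ± 1.39, 8.95 ± 0.341 and 7.32 ± 0.515 at 0, 1, 3 and 10 ppm, and the 10 ppm range of 6.75 to 7.75 overlapped the control range of 7.54 to 11.7. For gpx4a over gpx4b it was 2.12 ± 0.347, 2.57 ± 0.597, 3.12 ± 0.786 and 1.91 ± 0.363 in the same order. The ratio of dio1 to dio2 averaged 15.5 ± 6.34 at 10 ppm, against 28.3 ± 4.06 in controls, with the dio2 counts limiting its precision.

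**Figure D3:**
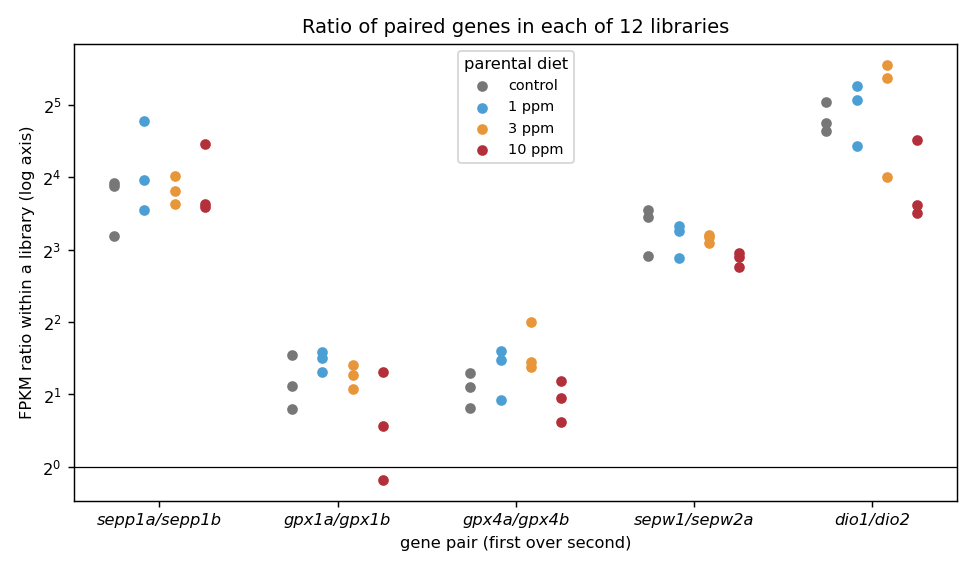
Ratio of FPKM of the first gene to the second gene of each pair (y axis, log scale to base 2) in each of the 12 libraries, coloured by parental diet, 3 points per diet. The line marks a ratio of 1, and the 10 ppm replicate 2 is the only library under it, for gpx1a over gpx1b at 0.881.

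The 10 ppm replicate 2 stood apart for these genes. It held the lowest value of the 12 libraries for 7 of the 9 tested genes: sepp1a, sepp1b, sepw1, gpx1a, gpx1b, gpx4a and gpx4b. Among all 18390 tested genes, 9.77% had their lowest value in that library. The exceptions were dio1, lowest in the 10 ppm replicate 1, and sepw2a, lowest in control replicate 2. Relative to the median of the other 11 libraries, gpx1a there was 0.280 times as high, sepp1b 0.514, gpx4a 0.624, dio1 0.637, sepw1 0.693, gpx4b 0.702, gpx1b 0.787, sepp1a 0.825 and sepw2a 0.928 times. The median deviation of the 9 genes from their means was -0.51 on the log2 scale, against 0.00 for all tested genes. Its recovered depth of 8021377 fragments lay within the range of the other libraries.

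**Figure D4:**
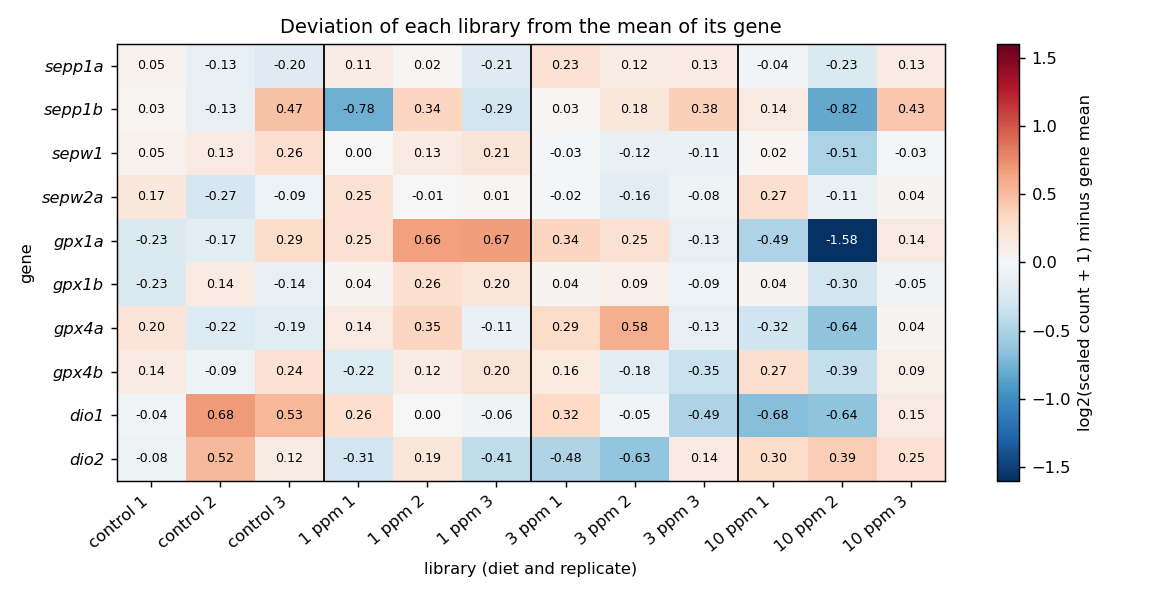
Deviation of log2(scaled count + 1) from the mean of each gene over 12 libraries (colour and printed value), with genes as rows and libraries as columns, ordered by diet. The column of the 10 ppm replicate 2 is below 0 for all genes but dio2, and its lowest value is -1.58 for gpx1a.

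The balance of estimates at 10 ppm depended on this library, which was singled out from the same values. It was the lowest library for 7 of the 9 genes, so leaving it out had to raise their estimates. With all libraries, 2 of the 9 genes had a higher estimate and 7 a lower one at 10 ppm than in controls, with a median log2 difference of -0.21; over all tested genes 9659 were higher and 8731 lower, with a median of 0.01. Without the 10 ppm replicate 2, 5 of the 9 genes were higher and 4 lower, and the median was 0.06. The signs of sepp1b (-0.21 with all libraries, 0.16 without that one), gpx4b (-0.10 and 0.08) and gpx1b (-0.03 and 0.06) turned. The estimates of dio1 (-0.66), sepw1 (-0.16), gpx1a (-0.14) and gpx4a (-0.07) stayed below 0. At 1 ppm 5 genes were higher and 4 lower, with a median of 0.07 against -0.01 for all tested genes, and at 3 ppm the counts were again 5 and 4, with a median of 0.07 against 0.00.

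Other gene lists were low, near 0 or high in the 10 ppm replicate 2, where 9.77% of all tested genes were lowest. It held the lowest value for 5 of 18 other selenoproteins (median deviation -0.18 log2 units), 5 of 15 antioxidant genes without selenium (-0.25), and 1 of 12 genes of selenium handling (-0.08). For the thyroid hormone axis it was 0 of 11 (0.09). Liver markers were lowest there for 4 of 10 genes (-0.27), and their summed level of 7457 FPKM was the lowest of the 12 libraries. The 9 markers of yolk and macrophages had a median deviation of -0.34 there, with 1 of 9 lowest. Markers of exocrine pancreas (0.22), muscle (0.15) and brain (0.06) had medians above 0 and those of intestine one of -0.09, with 0 genes lowest there in each of these lists. The part of these tissues in the low values was not tested. The 3 ppm replicate 3 held the lowest value for 6 of the 15 antioxidant genes (-0.30) and for 0 of the 9 tested genes, beside 9.96% of all tested genes.

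**Figure D5:**
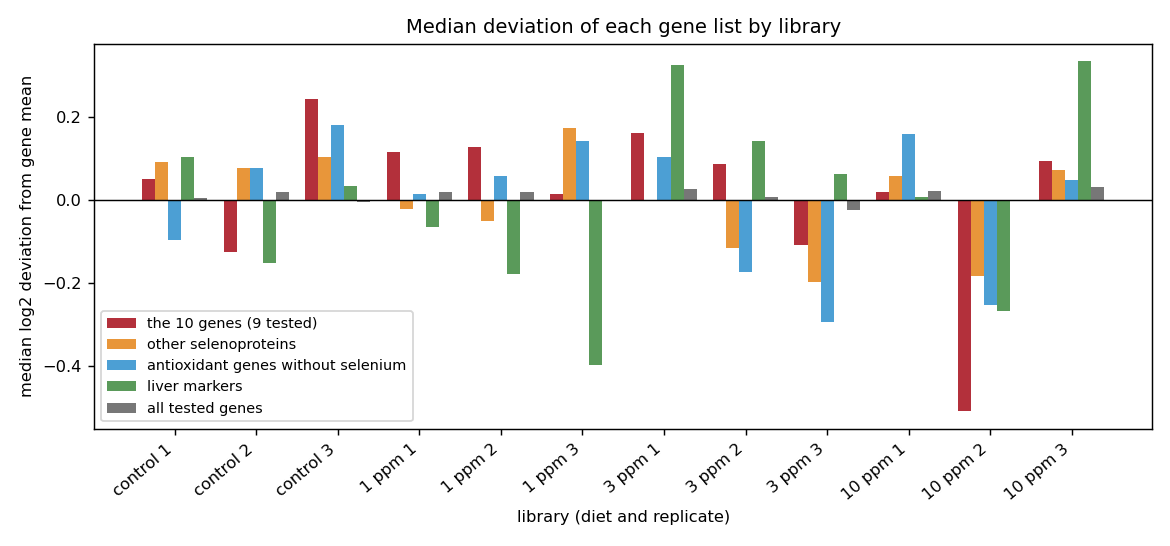
Median log2 deviation from gene means (y axis) in each library (x axis) for the 9 tested genes, other selenoproteins, antioxidant genes without selenium, liver markers and all tested genes. In the 10 ppm replicate 2 the 9 genes reach -0.51 and liver markers -0.27, while all tested genes stay at 0.00.

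Among the other selenoproteins, 20 rows were found and 18 tested, and 0 passed in any of the 8 limma tests. At an unadjusted p under 0.05 the counts were 0 at 1 ppm (1.96% of all tested genes), 2 at 3 ppm (10.4%) and 1 at 10 ppm (5.71%) against control. At 3 ppm 15 of 18 had a lower estimate than in controls, with a median log2 difference of -0.20 against 0.00 for all tested genes, and 5 of 18 had all 3 ppm libraries below all control libraries, beside 9.45% of all tested genes. The smallest p values at 3 ppm were those of sepw2b, a second relative of selenoprotein W, and selt2, a gene for selenoprotein T of the endoplasmic reticulum. The gene sepw2b averaged 199 ± 20.0 scaled counts at 3 ppm against 284 ± 18.7 in controls (log2 difference -0.52, limma adjusted p = 0.396), and selt2 433 ± 22.0 against 530.04 ± 61.4 (-0.29, adjusted p = 0.441). At 10 ppm 14 of 18 were lower, with a median of -0.08. There selt1b, another gene for selenoprotein T, averaged 127 ± 19.8 against 158 ± 6.07 in controls (-0.32, adjusted p = 0.851), and selenoh, for a nuclear selenoprotein, 179.98 ± 30.3 against 218 ± 12.0 (-0.29, adjusted p = 0.851). At 1 ppm 7 were higher and 11 lower, with a median of -0.01. The deiodinase gene dio3b, whose enzyme inactivates thyroid hormones, averaged 45.0 ± 6.75 at 1 ppm against 61.5 ± 12.9 in controls (-0.43, adjusted p = 1.00), and selm 100.4 ± 30.7 against 82.7 ± 29.9 (0.30, adjusted p = 1.00). Of these named genes, sepw2b and selt2 at 3 ppm, selt1b at 10 ppm and dio3b at 1 ppm had all libraries below the controls. All tested genes gave 9.45%, 4.81% and 2.77% lower without overlap at 3, 10 and 1 ppm.

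A list of 12 genes of selenium handling held genes for selenocysteine synthesis, insertion and uptake (among them rpl30 and ncl, whose proteins bind selenoprotein messenger RNA in mammals), and also selenbp1, for a selenium-binding protein, and txn, for thioredoxin. Of these 0 of 12 passed in any limma test, and at an unadjusted p under 0.05 there were 0, 1 and 0 at 1, 3 and 10 ppm (1.96%, 10.4% and 5.71% of all tested genes). At 10 ppm 6 were higher and 6 lower than in controls, with a median log2 difference of -0.04, and at 3 ppm 5 were higher and 7 lower (-0.05). Estimates at 1 ppm were higher for 5 and lower for 7 (-0.03). The synthase gene sepsecs, which makes selenocysteine on its transfer RNA, averaged 22.5 ± 3.60 scaled counts at 10 ppm against 29.6 ± 2.61 in controls (-0.39, adjusted p = 0.851). The gene secisbp2, whose protein reads the selenocysteine insertion element, averaged 62.6 ± 7.97 against 47.3 ± 14.6 (0.43, adjusted p = 0.851). At 3 ppm lrp2b, a relative of the receptor megalin that takes up selenoprotein P in mouse kidney, averaged 166 ± 57.0 against 106 ± 13.3 (0.60, adjusted p = 0.463). The selenocysteine lyase gene scly averaged 81.9 ± 7.56 at 3 ppm against 103 ± 11.6 (-0.33, adjusted p = 0.510). The libraries of lrp2b (higher) and scly (lower) at 3 ppm and of sepsecs (lower) at 10 ppm did not overlap the controls. All tested genes gave 8.27%, 9.45% and 4.81% in the same order. At 1 ppm lrp8, a selenoprotein P receptor in mouse brain and testis, and trnau1apb, a partner of the selenocysteine transfer RNA, had log2 differences of 0.18 each (adjusted p = 1.00 for each).

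Antioxidant genes without selenium (peroxiredoxins, cysteine peroxidases, superoxide dismutases and enzymes of glutathione supply) gave 0 of 15 passing in any limma test, and 0, 1 and 0 at an unadjusted p under 0.05 at 1, 3 and 10 ppm, where all tested genes gave 1.96%, 10.4% and 5.71%. At 3 ppm 12 of 15 were lower than in controls, with a median log2 difference of -0.16; at 10 ppm 10 of 15 were lower (-0.05), and at 1 ppm 10 of 15 were higher (0.04). The peroxiredoxin gene prdx6 averaged 310 ± 36.6 scaled counts at 3 ppm against 416 ± 55.6 in controls (-0.42, adjusted p = 0.435), without overlap. At 10 ppm it averaged 337 ± 55.5 against the same controls (-0.31, adjusted p = 0.851). The mitochondrial and peroxisomal prdx5 had a log2 difference of -0.28 at 3 ppm (adjusted p = 0.522). The gene gpx8, for an endoplasmic reticulum peroxidase with cysteine in place of selenocysteine, averaged 26.6 ± 7.34 at 10 ppm against 34.8 ± 0.461 in controls (-0.41, adjusted p = 0.851). These gpx8 libraries did not overlap. All tested genes gave 9.45% lower without overlap at 3 ppm and 4.81% at 10 ppm. At 1 ppm the log2 differences of prdx4 and prdx1 were 0.25 and 0.26 (adjusted p = 1.00 for each).

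The thyroid hormone axis, on which deiodinases act, had 11 tested genes, and 0 passed in any limma test, with 2, 3 and 1 of 11 at an unadjusted p under 0.05 at 1, 3 and 10 ppm, beside 1.96%, 10.4% and 5.71% of all tested genes. The same limit gave 4 of 11 for 3 ppm against 1 ppm (15.8%), 5 for 10 ppm against 1 ppm (8.08%) and 1 for 10 ppm against 3 ppm (3.77%). It gave 5 of 11 in the F-test (8.59%) and 0 in the trend test (10.3%). At 10 ppm 9 of 11 were higher than in controls, with a median log2 difference of 0.20, and at 3 ppm 7 of 11 (0.17). At 1 ppm 5 were higher and 6 lower (-0.09). The gene duox, for the oxidase that supplies hydrogen peroxide for thyroid hormone synthesis, averaged 53.2 ± 8.66 scaled counts at 1 ppm against 25.4 ± 6.52 in controls, without overlap. Its log2 difference was 1.06 (limma adjusted p = 1.00), and it was 0.64 at 3 ppm and 0.46 at 10 ppm. The carrier gene ttr averaged 375 ± 46.2 at 1 ppm against 491 ± 91.2 in controls (-0.38, adjusted p = 1.00), also without overlap. Of 10 liver markers, 9 were lower at 1 ppm as well, with a median of -0.19. Their part in the ttr values was not tested. The thyroid hormone receptor gene thrab averaged 55.4 ± 3.30 at 3 ppm against 36.0 ± 9.78 (0.64, adjusted p = 0.437), without overlap. Beside thrab and duox, the other gene at an unadjusted p under 0.05 at 3 ppm was tg. It was lower there than in controls (-1.03, limma adjusted p = 0.441). The transporter gene slc16a10 averaged 165 ± 32.6 at 10 ppm against 225 ± 41.5 (-0.45, adjusted p = 0.851). All tested genes gave 3.26% higher and 2.77% lower without overlap at 1 ppm, and 8.27% higher at 3 ppm.

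For the 3 genes with the smallest F-test p, the genes of most similar pattern were found by the root mean square difference of centred log2 values over 12 libraries. Closest to gpx1a was ptf1a, for a transcription factor of pancreas and hindbrain, at 0.23 log2 units, where the SD of gpx1a itself was 0.61. Its values were low: 14.1, 9.79 and 13.4 scaled counts in controls, 14.5, 16.9 and 16.4 at 1 ppm, 14.7, 14.8 and 10.2 at 3 ppm, and 10.7, 4.84 and 12.5 at 10 ppm. As with gpx1a, the 10 ppm replicate 2 was the lowest. Next came zgc:171318 (0.30), pole4 (0.31), si:dkey-122a22.2 (0.31) and si:ch211-222n4.6 (0.32). For dio1, with an SD of 0.43, they were cdan1 (0.21), gins4 (0.22), cdca7b (0.22), fam129ab (0.23) and znf526 (0.23). For gpx4a, with an SD of 0.34, they were tgfbrap1, wu:fb59d01 and dhps (0.18 each), and krt96 and kcnv2a (0.19 each). These genes were picked for their closeness from 18390, so the distances are a description, with no test.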

How the data were processed

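TruSeq libraries of embryo pools, 5 to a pool, were sequenced from both ends (100 base pairs, 12 libraries in 1 lane), per the labels' protocols. TopHat, Cuffnorm, cutadapt, FastQC and CASAVA 1.8.2 appear, with the genome build Zv9, in the submitters' processing notes. What each did, the use of strand and the annotation release: not given in the sources used here. As deposited by the authors, the count table holds a signal: fragment counts divided by 1 factor per library, read from its values, whose steps were 0.564 to 1.17; 98.1% to 98.6% of values were whole multiples within 0.02 steps. The second table holds FPKM, deposited by the authors. One header spelling, CRTL3, was taken as control 3.

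The main test was limma 3.58.1 in R 4.3.3, with a mean-variance trend and robust moderation, on log2(scaled count + 1) of 18390 genes with a mean of at least 10, all 12 libraries in 1 fit, Benjamini-Hochberg adjusted. Fold changes on this scale understate those of low genes. Levels and ratios used FPKM. The limma fit was checked on simulated counts with known changes at 10 ppm. The simulation gave all genes the same dispersion and held no clock state. It therefore does not tell how well small differences are found in these libraries. Groups came from the labelled agent and replicate numbers from the sample titles. Same-numbered libraries had correlations of deviations of -0.227 to 0.472, over 0.1 in 6 of 18 pairs, so numbers were not taken as pairs. Tissue markers, 12 clock genes and 4 lists (other selenoproteins, selenium handling, antioxidant genes without selenium, thyroid hormone axis) were used. The text names all 10 genes and, from each of these 4 lists, any gene that passed a test and the 2 with the smallest p in each comparison with control. It also names, for the 3 genes with the smallest F-test p, the 5 genes of most similar pattern. The gene tg was named outside this rule, as the other thyroid axis gene at an unadjusted p under 0.05 at 3 ppm. The 10 genes and the lists were chosen with earlier results of these data known. Gene pairs such as gpx4a and gpx4b are paralogs, and it is not given in the sources used here how fragments matching both were counted, so the split within a pair is uncertain. No sequences were used.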

Additional observations from a re-analysis of the deposited data

How the results depend on the processing

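None of the 9 tested genes passed in any of the 8 tests under the 192 combinations of test and alternative setting, so the counts of 0 held in all that were run. The smallest adjusted limma p for a fold change of these genes was 0.156 (dio1 at 10 ppm without control replicate 1). For the trend over diet ranks it was 0.0866 without the same library. The controls left then were of high per1b, and all libraries at 3 and 10 ppm were of low per1b. The difference at 10 ppm cannot be told apart there from one of clock state. Of 648 fold changes recomputed, 622 kept their sign and 26 turned, all of them uncalled. With log2 per1b as a covariate the log2 differences at 10 ppm were 0.15 for gpx1b, -0.13 for sepp1a, 0.18 for sepp1b and -0.13 for sepw2a. Without the 4 libraries of high per1b they were 0.12 for gpx1b, -0.10 for sepp1a and -0.10 for sepw2a at 10 ppm, and 0.30 for dio1 and -0.064 for gpx4a at 1 ppm. That setting leaves 1 control library and 1 library at 1 ppm, assumed to vary like the other groups, so these turns rest on single libraries. The covariate fit leans on the same libraries, since control and 1 ppm each had 1 library of low per1b. With limma-voom sepw2a at 3 ppm was 0.014, on scaled counts, and 0.014 on recovered fragments. The cause of these turns was not tested.

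Leaving out 1 library at a time turned the sign of 9 log2 differences from control, over these ranges: at 1 ppm gpx4b -0.16 to 0.065, sepp1a -0.00083 to 0.16 and sepw1 -0.086 to 0.021; at 3 ppm sepp1b -0.055 to 0.25 and sepw2a -0.13 to 0.095. At 10 ppm they were gpx1b -0.11 to 0.076, gpx4b -0.24 to 0.085, sepp1a -0.042 to 0.14 and sepp1b -0.46 to 0.16. Over the whole table, the number of genes called at 10 ppm against control was 0 with all libraries and 0 to 41 with 1 left out, 41 being the count without control replicate 1. At 3 ppm it was 3, and 3 to 17 with 1 left out. For the trend over diet ranks it was 4, and 0 to 146 with 1 left out. The highest counts were again those without control replicate 1. As above, that setting put controls of high per1b against libraries of low per1b at 3 and 10 ppm. Other settings gave 0 to 1 at 10 ppm, 2 to 7 at 3 ppm and 0 to 6 for the trend.

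With the replicate number as a block, 0 of the 9 genes passed in each test, the adjusted p of dio1 at 10 ppm was 0.672, and no call among the 9 changed; over the whole table the block gave 1 gene for the trend against 4 without it. A library correlated best with its own number in 12 of 36 cases. The edgeR test, planned only for a table of raw counts, was not run, and neither was DESeq2. The count table holds scaled counts, and not all of its values gave back whole fragments. In place of a count test, limma-voom on recovered fragments was chosen after seeing the data. The intervals given are per gene and unadjusted, while a call needed adjustment over 18390 genes. At 10 ppm dio1 had an interval of -1.35 to -0.21 and did not pass (limma adjusted p = 0.774). With 3 pools per diet, differences larger than these intervals could therefore go uncalled. The values of dio2 rest on 4 to 14 fragments per library.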
